A study of Mus musculus with 24 samples.

Results

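Genes that write, read or remove the repressive Polycomb mark and DNA methylation were followed through the muscle stem cell (MuSC) lineage of dystrophic and healthy mice. They were chosen by name for their enzymatic or scaffold role, with no measured value in the rule, and are *Ezh1*, *Ezh2*, *Eed* and *Suz12* of Polycomb repressive complex 2 (PRC2), the DNA methylation genes *Dnmt1*, *Dnmt3a*, *Dnmt3b* and *Uhrf1*, and the methylcytosine oxidases *Tet1* and *Tet2*. They are 10 of the 53392 genes quantified, and all 10 passed the filter on low counts in each comparison. RNA sequencing covered 24 libraries, 3 for each of 8 groups, from *mdx* and wild-type (WT) mice in 4 states. *mdx* mice (C57BL/10ScSn-*Dmd* mdx/J), which carry a premature stop in the dystrophin gene and model Duchenne muscular dystrophy, and WT mice (C57BL/10ScSnJ) both carried the Pax7-nGFP reporter, which marks MuSCs with nuclear GFP. Freshly isolated MuSCs (FiMuSCs) were sorted from uninjured hindlimb muscle as GFP+ ITGA7+ cells without CD31, CD45, SCA1 or CD11b. Activated MuSCs (AMuSCs) were sorted with the same gate 3 days after an intramuscular injection of cardiotoxin, a snake toxin that kills myofibres. Myoblasts were grown from column-purified cells in growth medium with serum and bFGF, and myotubes were the same cultures after 2 days in low-serum medium. The mice were stated to be matched for age and sex, and the age was not given in the sources used here.

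PRC2 places methyl groups on lysine 27 of histone H3 and keeps developmental and cell cycle inhibitor genes silent. EZH2 and EZH1 are its alternative catalytic subunits, of which EZH2 is typical of dividing cells and EZH1 of resting and differentiated ones, while EED reads the mark and SUZ12 holds the complex together. DNMT1 copies CpG methylation onto the daughter strand behind the replication fork, guided by UHRF1, which recognises hemimethylated DNA. DNMT3A and DNMT3B methylate new sites, and TET1 and TET2 oxidise methylcytosine as a step toward its removal. In muscle, EZH2 has been linked to MuSC proliferation and to the silencing of differentiation genes until they are needed.

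On GRCm38, by the GENCODE M21 annotation, the PRC2 genes were *Ezh1* (ENSMUSG00000006920.14) at chr11:101191115-101226463, *Ezh2* (ENSMUSG00000029687.16) at chr6:47530139-47595341, *Eed* (ENSMUSG00000030619.9) at chr7:89954654-89980983 and *Suz12* (ENSMUSG00000017548.15) at chr11:79993106-80034123. The methylation genes were *Dnmt1* (ENSMUSG00000004099.16) at chr9:20907209-20959888, *Dnmt3a* (ENSMUSG00000020661.15) at chr12:3806007-3914443, *Dnmt3b* (ENSMUSG00000027478.15) at chr2:153649450-153687730 and *Uhrf1* (ENSMUSG00000001228.14) at chr17:56303321-56323486, and the oxidases were *Tet1* (ENSMUSG00000047146.17) at chr10:62804570-62908996 and *Tet2* (ENSMUSG00000040943.12) at chr3:133463679-133545139. Each is protein coding, and the values are sums over all annotated transcripts of a gene. No gene overlapping a member exceeded 1.82 CPM in any library.

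The promoters of 4 members held a word of the E2F family, the factors that drive genes of the G1 to S transition, and they are shown because these 4 genes were also the members called higher after injury in both genotypes, as given below. The words searched on both strands were TTTCCCGC, TTTCGCGC, TTTGCCGC and TTTGGCGC, in windows of 250 bases before to 50 bases after each RefSeq start (GRCm38.p6), of which the 10 members had 15. A word was present in 4 windows of 4 members and in 2.26% of all 32851 promoters. These windows held 31 (*Ezh2*), 41 (*Suz12*), 33 (*Dnmt1*) and 33 (*Uhrf1*) CpG dinucleotides, against a median of 7 over all promoters. As every word contains a CpG, the share over all promoters is not matched for CpG content. *Ezh2* (chr6:47594981-47595280, minus strand) held TTTGGCGC from base 4 after its start. *Suz12* (chr11:79992856-79993155, plus strand) held TTTCCCGC from base -219. *Dnmt1* (first of 3 windows, chr9:20952574-20952873, minus strand) held TTTCGCGC on the opposite strand from base -219, printed as its complement, and TTTGGCGC from base 34. *Uhrf1* (second of 2 windows, chr17:56304063-56304362, plus strand) held TTTCGCGC from base -185. *Ezh1* (chr11:101226414-101226713, minus strand), the paralogue of *Ezh2* with the opposite course in these libraries, is printed for comparison and held none of these letters. Capitals mark the words.
Ezh2: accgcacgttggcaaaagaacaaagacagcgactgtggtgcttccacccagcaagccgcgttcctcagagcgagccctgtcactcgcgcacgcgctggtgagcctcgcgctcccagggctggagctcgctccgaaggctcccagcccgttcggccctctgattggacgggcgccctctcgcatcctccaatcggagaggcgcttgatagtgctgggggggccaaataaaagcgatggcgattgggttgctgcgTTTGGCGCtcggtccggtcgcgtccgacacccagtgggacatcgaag
Suz12: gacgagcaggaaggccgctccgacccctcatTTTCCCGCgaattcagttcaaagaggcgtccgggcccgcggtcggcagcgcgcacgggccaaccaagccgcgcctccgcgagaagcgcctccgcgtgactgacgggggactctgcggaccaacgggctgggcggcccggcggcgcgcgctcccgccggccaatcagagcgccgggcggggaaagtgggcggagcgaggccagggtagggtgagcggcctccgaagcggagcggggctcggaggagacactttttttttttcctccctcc
Dnmt1: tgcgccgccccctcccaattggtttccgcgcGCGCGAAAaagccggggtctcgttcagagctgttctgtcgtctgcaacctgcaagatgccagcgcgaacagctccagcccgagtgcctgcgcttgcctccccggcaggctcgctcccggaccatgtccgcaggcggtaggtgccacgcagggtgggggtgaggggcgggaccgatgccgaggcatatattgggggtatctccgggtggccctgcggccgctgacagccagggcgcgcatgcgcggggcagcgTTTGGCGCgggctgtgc
Uhrf1: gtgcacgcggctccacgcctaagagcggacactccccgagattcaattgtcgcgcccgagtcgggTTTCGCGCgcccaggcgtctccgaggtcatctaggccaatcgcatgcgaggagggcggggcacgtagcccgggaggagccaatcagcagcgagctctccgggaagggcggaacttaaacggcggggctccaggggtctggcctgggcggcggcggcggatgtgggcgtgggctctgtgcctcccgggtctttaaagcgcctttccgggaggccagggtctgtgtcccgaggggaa
Ezh1: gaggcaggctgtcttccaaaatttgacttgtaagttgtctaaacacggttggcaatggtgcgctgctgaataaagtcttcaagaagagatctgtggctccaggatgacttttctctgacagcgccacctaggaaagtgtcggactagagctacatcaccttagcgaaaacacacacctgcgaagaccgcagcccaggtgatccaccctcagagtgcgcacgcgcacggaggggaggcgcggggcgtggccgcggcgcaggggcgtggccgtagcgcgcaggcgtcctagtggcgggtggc
No such word lay in the windows of *Dnmt3a*, *Dnmt3b*, *Tet1*, *Tet2* or *Eed*, of which *Eed* was called higher after injury in WT only. The CHR word TTTGAA, a cell cycle promoter element, was found in 4 of the 15 windows (4 members) and in 17.89% of all promoters. CCAAT was found in 7 of the 15 windows (5 members) and in 37.41% of all promoters. CCAAT and its complement overlapped one another in the *Dnmt1* window. The *Tet2* window held 57 CpG dinucleotides, more than 99.8% of promoters, against a median of 7 over all promoters, and the *Ezh1* window held 23. These matches describe letters in a window and no binding was measured.

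The libraries held between 37280196 and 64429222 estimated fragments, with a median of 47357463. Levels are given as CPM, that is counts scaled to a common size over the 24 libraries, and a gene was called where the adjusted p of the edgeR quasi-likelihood test was under 0.05. Statements that groups do not overlap describe the 3 libraries a group, and the share of all genes without overlap was not computed. *Pax7*, the MuSC transcription factor, ranged from 1490.0 to 1970.0 CPM in *mdx* FiMuSCs and from 1397 to 1955 CPM in WT FiMuSCs, and *Myog*, which marks committed myocytes, reached 1217 to 2338 CPM in the myotubes of both genotypes. *Dmd* stood at 38.1 to 47.1 CPM in *mdx* myotubes, against 205 to 230.0 CPM in WT myotubes, and its ranges overlapped in AMuSCs. The summed level of 8 leukocyte and macrophage markers was 4032, 141 and 274 CPM in the *mdx* AMuSC libraries, against 8.34 to 25.5 CPM in WT AMuSCs, so that *mdx* AMuSC replicate 1 stood apart although CD45+ and CD11b+ cells were gated out. The 5 fibro-adipogenic progenitor markers, SCA1 (*Ly6a*) among them, summed to 1633 to 2448 CPM in *mdx* AMuSCs, against 536 to 640 CPM in WT AMuSCs, and no leukocyte or fibro-adipogenic marker was at 0 in either group. The part of leukocyte and fibro-adipogenic RNA in the genotype differences given below was not tested, and the member calls without replicate 1 are given beside them. Sorted and cultured cells were also extracted with different kits, so kit and state cannot be told apart between them, and fewer cells of a type and less RNA per cell cannot be told apart in bulk RNA.

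**Figure D1:**
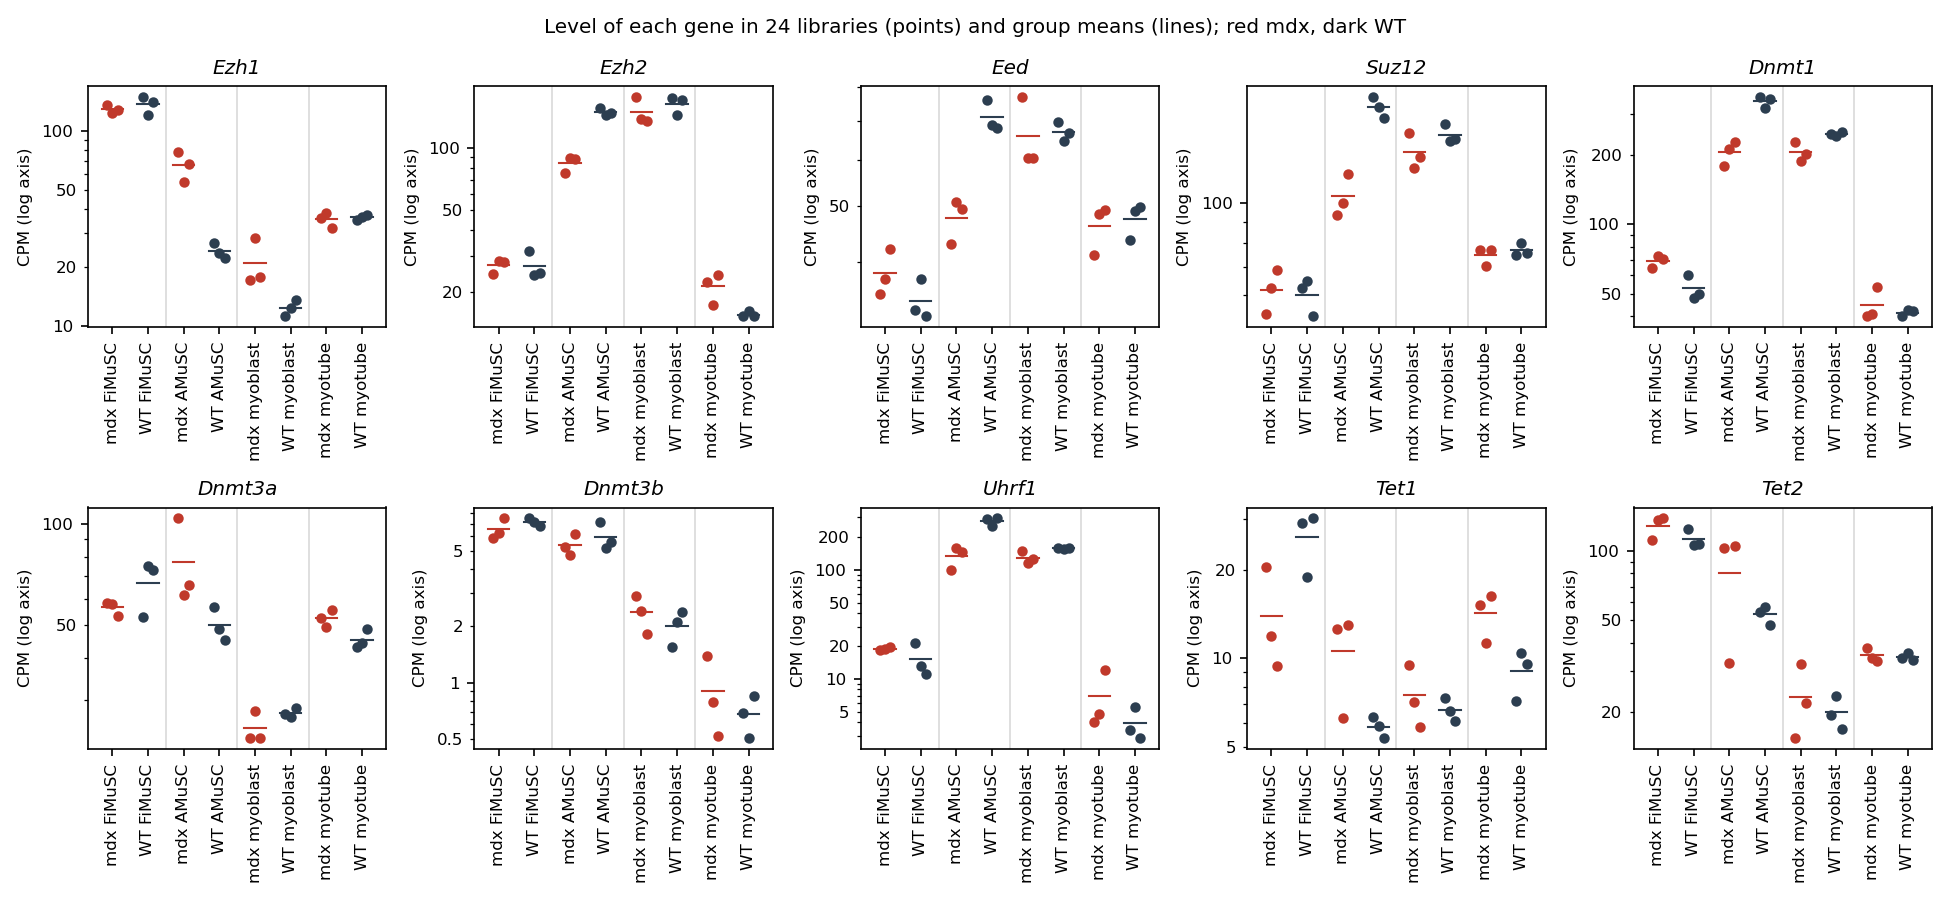
CPM (log axis) of each of the 10 genes in every library (points) with group means (lines), *mdx* in red left of WT in dark within each state. *Ezh2*, *Dnmt1*, *Uhrf1* and *Suz12* were high in AMuSCs and myoblasts and low in FiMuSCs and myotubes, while *Ezh1* was highest in FiMuSCs, at 124 to 136 CPM in *mdx* and 121 to 149.5 CPM in WT.

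Which member was the most abundant depended on the state and on the transcripts counted. Compared per length, as length-corrected transcript abundance (TPM) summed over coding transcripts of at least 1000 bases, a limit chosen after seeing the data, *Ezh1* led in FiMuSCs with 24.9 ± 1.33 TPM in *mdx* and 26.0 ± 2.58 TPM in WT (SD, n = 3 each), above *Suz12* at 11.7 ± 1.44 TPM in *mdx* and 11.4 ± 0.794 TPM in WT. In AMuSCs *Dnmt1* and *Uhrf1* came first on this scale. *Dnmt1* had 27.2 ± 4.54 TPM in *mdx* and 40.1 ± 2.97 TPM in WT, and *Uhrf1* had 26.4 ± 5.38 TPM in *mdx* and 49.1 ± 3.37 TPM in WT, so that these neighbours lay within their spread in *mdx* only. *Ezh2* led in myoblasts with 34.9 ± 6.23 TPM in *mdx* and 38.7 ± 3.49 TPM in WT. *Suz12* led in myotubes with 8.91 ± 1.42 TPM in *mdx* and 8.42 ± 0.5 TPM in WT. *Dnmt3b* and *Tet1* were the lowest of the 10 in all 8 groups, and the highest mean of either was 1.77 TPM, for *Tet1* in WT FiMuSCs. On TPM summed over all transcripts of a gene the order differed. There *Eed* led in FiMuSCs (70.8 ± 7.34 TPM in *mdx* and 63.7 ± 3.97 TPM in WT) and in myotubes (44.4 ± 3.61 TPM in *mdx* and 40.9 ± 3.64 TPM in WT). In AMuSCs *Eed* (65.4 ± 12.1 TPM in *mdx*, 98.1 ± 3.35 TPM in WT) and *Ezh2* (63.1 ± 10.7 TPM in *mdx*, 104.8 ± 8.52 TPM in WT) had the highest means and *Dnmt1* was the fifth, and *Ezh2* led in myoblasts on both scales.

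In WT mice *Uhrf1*, *Dnmt1*, *Ezh2*, *Suz12* and *Eed* rose in AMuSCs relative to FiMuSCs, and *Ezh1*, *Tet1* and *Tet2* fell. The higher genes were thus the PRC2 core without *Ezh1* and the maintenance methylation pair. The de novo enzymes *Dnmt3a* and *Dnmt3b* did not pass the test. Of the members 5 were higher and 3 lower, against 31.6% of all 19359 genes tested higher and 33% lower, so most genes moved in this comparison and the members' share lower was near that of all genes. The members' median log2 fold change was 0.49 and that of all genes was -0.08.

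*Ezh1* had 26.7, 23.6 and 22.5 CPM in WT AMuSCs, against 149.5, 121 and 141 CPM in WT FiMuSCs. The groups were far apart, and *Ezh1* fell by 2.41 on the log2 scale (SE 0.113, edgeR adjusted p = 9.42e-07), a 5.32-fold lower level. *Ezh2* had 156, 143 and 147 CPM in WT AMuSCs, against 31.6, 24.2 and 24.7 CPM in WT FiMuSCs. This rise was 5.89-fold (log2 2.56 ± 0.12, adjusted p = 8.97e-07), about as large as the fall of its paralogue. *Dnmt1* had 357, 318 and 349.6 CPM in WT AMuSCs, against 60.2, 48.0 and 49.5 CPM in WT FiMuSCs, 6.91-fold higher (adjusted p = 5.83e-07). *Uhrf1* moved most, with 289, 253 and 294 CPM in WT AMuSCs, against 21.2, 13.04 and 11.0 CPM in WT FiMuSCs. Its rise was 19.7-fold (log2 4.30 ± 0.26, adjusted p = 1.3e-05). The scaffold *Suz12* was 3.00-fold and the reader *Eed* 2.21-fold higher in WT AMuSCs (adjusted p = 3.01e-06 and 1.32e-05).

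The oxidases went the other way in WT cells. *Tet1* had 6.31, 5.86 and 5.35 CPM in WT AMuSCs, against 28.9, 19.0 and 30.1 CPM in WT FiMuSCs, and was 4.19-fold lower (log2 -2.07 ± 0.19, adjusted p = 2.84e-05). *Tet2* had 54.2, 57.5 and 47.5 CPM in WT AMuSCs, against 124, 106 and 107 CPM in WT FiMuSCs, and was 2.00-fold lower (adjusted p = 5.29e-05). All 3 FiMuSC libraries lay above all 3 AMuSC libraries for both genes. The values of *Dnmt3a* (-0.33 on the log2 scale, adjusted p = 0.0887) and *Dnmt3b* (-0.17, adjusted p = 0.45) did not pass, and with an offset for transcript length these were 0.54 and 0.09. Without WT FiMuSC replicate 1, in which *Dnmt3a* was lowest, its log2 fold change was -0.48 and the adjusted p was 0.00441.

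In *mdx* mice 5 members passed the test, each in the direction it had in WT. *Uhrf1*, *Dnmt1*, *Ezh2* and *Suz12* rose and *Ezh1* fell in *mdx* AMuSCs relative to *mdx* FiMuSCs, that is 4 higher and 1 lower, against 15.5% of 19650 genes higher and 11.7% lower. *Uhrf1* had 98.6, 156 and 146 CPM in *mdx* AMuSCs, against 18.6, 18.6 and 19.4 CPM in *mdx* FiMuSCs, a 7.09-fold rise (adjusted p = 0.000197). *Ezh2* had 75.3, 88.8 and 87.7 CPM in *mdx* AMuSCs, against 24.7, 28.5 and 28.1 CPM in *mdx* FiMuSCs, a 3.09-fold rise (adjusted p = 0.000409). Neither gene's groups overlapped. *Dnmt1* was 2.96-fold and *Suz12* 1.67-fold higher (adjusted p = 0.000573 and 0.0125), and the call of *Suz12* was lost without *mdx* FiMuSC replicate 2 (log2 0.75, adjusted p = 0.0501). *Ezh1* had 77.9, 55.0 and 67.5 CPM in *mdx* AMuSCs, against 136, 124 and 128 CPM in *mdx* FiMuSCs, and was 1.94-fold lower (adjusted p = 0.00464). *Eed* (log2 0.31), *Tet1* (log2 -0.40) and *Tet2* (log2 -0.69) had adjusted p of 0.139, 0.482 and 0.281.

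Whether the injury responses differed between genotypes was tested with an interaction term over the 12 sorted libraries. For 7 of the 10 genes the difference passed the test, 2 with a positive and 5 with a negative difference (*mdx* response minus WT response), against 8.14% of 21086 genes positive and 6.98% negative. *Ezh1* had the largest positive difference among the PRC2 genes, 1.43 ± 0.185 on the log2 scale (adjusted p = 0.000998). *Uhrf1* (-1.50 ± 0.317, adjusted p = 0.0103), *Dnmt1* (-1.25 ± 0.177, adjusted p = 0.00155), *Ezh2* (-0.96 ± 0.173, adjusted p = 0.00515), *Suz12* (-0.87 ± 0.174, adjusted p = 0.00837) and *Eed* (-0.85 ± 0.156, adjusted p = 0.00535) had negative differences. *Tet1* had a difference of 1.64 ± 0.459 (adjusted p = 0.0336), but its call was lost in 9 of the 12 fits that left out 1 library each (adjusted p from 0.0643 to 0.0876), all but those without WT FiMuSC replicate 2, *mdx* FiMuSC replicate 1 or *mdx* AMuSC replicate 2, and with an offset for transcript length (1.02, adjusted p = 0.16). *Dnmt3a* (0.74), *Dnmt3b* (-0.14) and *Tet2* (0.29) had adjusted p of 0.0868, 0.805 and 0.747. Without *mdx* AMuSC replicate 2 *Dnmt3a* (0.88) and *Tet2* (0.67) had adjusted p of 0.0428 and 0.0136. With an offset for transcript length the difference was 0.002 for *Dnmt3a* and 0.52 for *Tet2* (adjusted p = 0.648), and neither was called.

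**Figure D2:**
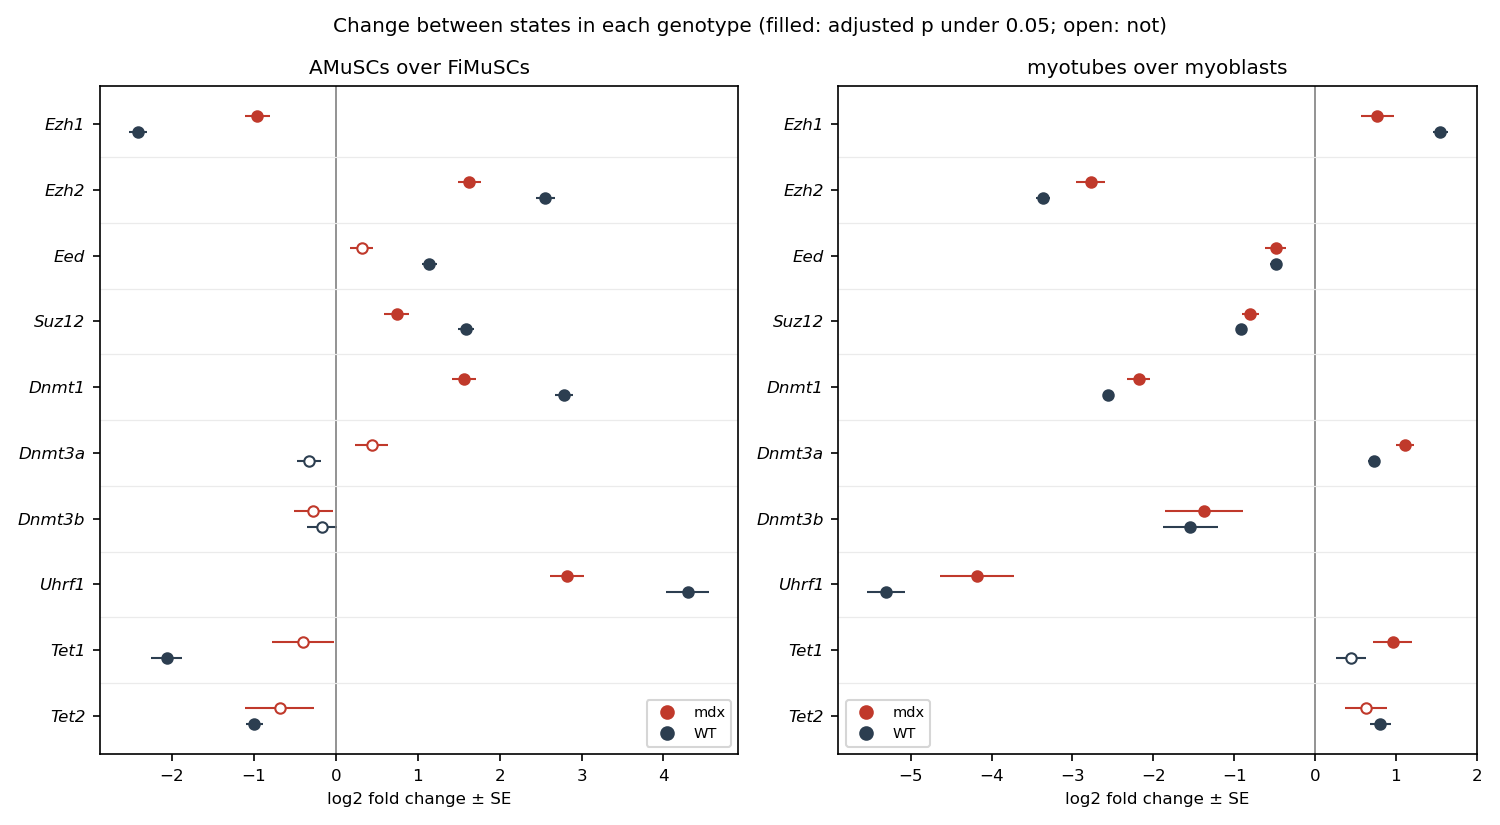
Log2 fold change ± SE of AMuSCs over FiMuSCs (left) and of myotubes over myoblasts (right) for each gene, *mdx* in red above WT in dark. Filled points had an edgeR adjusted p under 0.05, and after injury every called *mdx* point lies nearer to 0 than its WT partner, for example *Ezh1* at -0.96 in *mdx* and -2.41 in WT.

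The genotypes themselves were then compared within each state, which asks whether *mdx* cells carry other amounts of these transcripts before injury, after it and in culture. In AMuSCs 1 member was higher and 5 were lower in *mdx* than in WT, against 14.8% of 19321 genes higher and 8.95% lower. *Ezh1* was higher, while *Ezh2*, *Eed*, *Suz12*, *Dnmt1* and *Uhrf1* were lower. The lower genes were thus the PRC2 core without *Ezh1* and both maintenance methylation genes. The members' median log2 fold change was -0.39, and that of all genes tested was 0.04.

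*Ezh1* had 77.9, 55.0 and 67.5 CPM in *mdx* AMuSCs, against 26.7, 23.6 and 22.5 CPM in WT AMuSCs, and was 2.71-fold higher (log2 1.44 ± 0.17, edgeR adjusted p = 0.00222). The lowest *mdx* library lay well above the highest WT library. Of 7 MuSC markers 6 were called higher in *mdx* AMuSCs as well (median log2 fold change 1.045). They summed to 2604 to 3001 CPM in *mdx* AMuSCs, against 1837 to 1870 CPM in WT AMuSCs, and their part in the *Ezh1* difference was not tested. *Ezh2*, with 75.3, 88.8 and 87.7 CPM in *mdx* AMuSCs against 156, 143 and 147 CPM in WT AMuSCs, was 1.80-fold lower (log2 -0.85 ± 0.11, adjusted p = 0.00343). *Suz12* had 93.6, 100.2 and 117 CPM in *mdx* AMuSCs, against 179.7, 169.7 and 160.4 CPM in WT AMuSCs, 1.67-fold lower (adjusted p = 0.00907). *Eed* had 42.9, 50.8 and 49.4 CPM in *mdx* AMuSCs, against 76.1, 69.0 and 68.0 CPM in WT AMuSCs, 1.52-fold lower (adjusted p = 0.0102). None of these 4 pairs of groups overlapped.

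*Uhrf1* and *Dnmt1*, which act together behind the replication fork, were lower in *mdx* than in WT AMuSCs as well. *Uhrf1* had 98.6, 156 and 146 CPM in *mdx* AMuSCs, against 289, 253 and 294 CPM in WT AMuSCs, 2.12-fold lower (log2 -1.09 ± 0.18, adjusted p = 0.0069). *Dnmt1* had 179.5, 212 and 227 CPM in *mdx* AMuSCs, against 357, 318 and 349.6 CPM in WT AMuSCs, 1.69-fold lower (log2 -0.76 ± 0.14, adjusted p = 0.00922). The groups did not overlap for either gene, and *mdx* replicate 1, the library with the most leukocyte marker RNA, was the lowest for both. Without it the same 6 genes were called, with log2 fold changes of 1.31 for *Ezh1*, -0.79 for *Ezh2*, -0.54 for *Eed*, -0.68 for *Suz12*, -0.67 for *Dnmt1* and -0.92 for *Uhrf1* (adjusted p from 0.00322 to 0.0171). The remaining *mdx* AMuSC libraries still held 141 and 274 CPM of leukocyte markers, against 8.34 to 25.5 CPM in WT AMuSCs. The part of this RNA in the calls was not tested. Without WT AMuSC replicate 1, 3 genes were called, as *Eed* (-0.55), *Suz12* (-0.69) and *Dnmt1* (-0.72) had adjusted p of 0.0637, 0.0538 and 0.0555, and without WT AMuSC replicate 3 *Dnmt1* had an adjusted p of 0.0505. The calls over all genes moved too, from 1416 to 6305 without single libraries, against 4582 with all of them.

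The other 4 members did not pass the test in AMuSCs. With all 24 libraries in 1 fit 8 members were called, as were 6380 of all genes, against 4582 in the main fit. *Dnmt3a* had 104, 61.7 and 65.7 CPM in *mdx* AMuSCs, against 56.8, 48.6 and 45.3 CPM in WT AMuSCs, with no overlap (log2 0.60 ± 0.22, adjusted p = 0.0876). With an offset for transcript length its log2 fold change was 0.15 (adjusted p = 0.773). *Tet1* had 12.6, 6.28 and 13 CPM in *mdx* AMuSCs, against 6.31, 5.86 and 5.35 CPM in WT AMuSCs (log2 0.85 ± 0.31, adjusted p = 0.0831 with edgeR and 0.0367 with DESeq2). *Tet2* had 104, 32.7 and 105 CPM in *mdx* AMuSCs, against 54.2, 57.5 and 47.5 CPM in WT AMuSCs (log2 0.60, adjusted p = 0.414). *mdx* replicate 2 decided both oxidases, since without it 8 members were called, *Tet1* with a log2 fold change of 1.08 (adjusted p = 0.00682) and *Tet2* with 0.93 (adjusted p = 0.00392). Such counts stand beside all-gene calls of 1416 to 6305 without single libraries. *Dnmt3b*, at 4.75 to 6.2 CPM in *mdx* AMuSCs and 5.2 to 7.18 CPM in WT AMuSCs, overlapped between genotypes (adjusted p = 0.664).

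**Figure D3:**
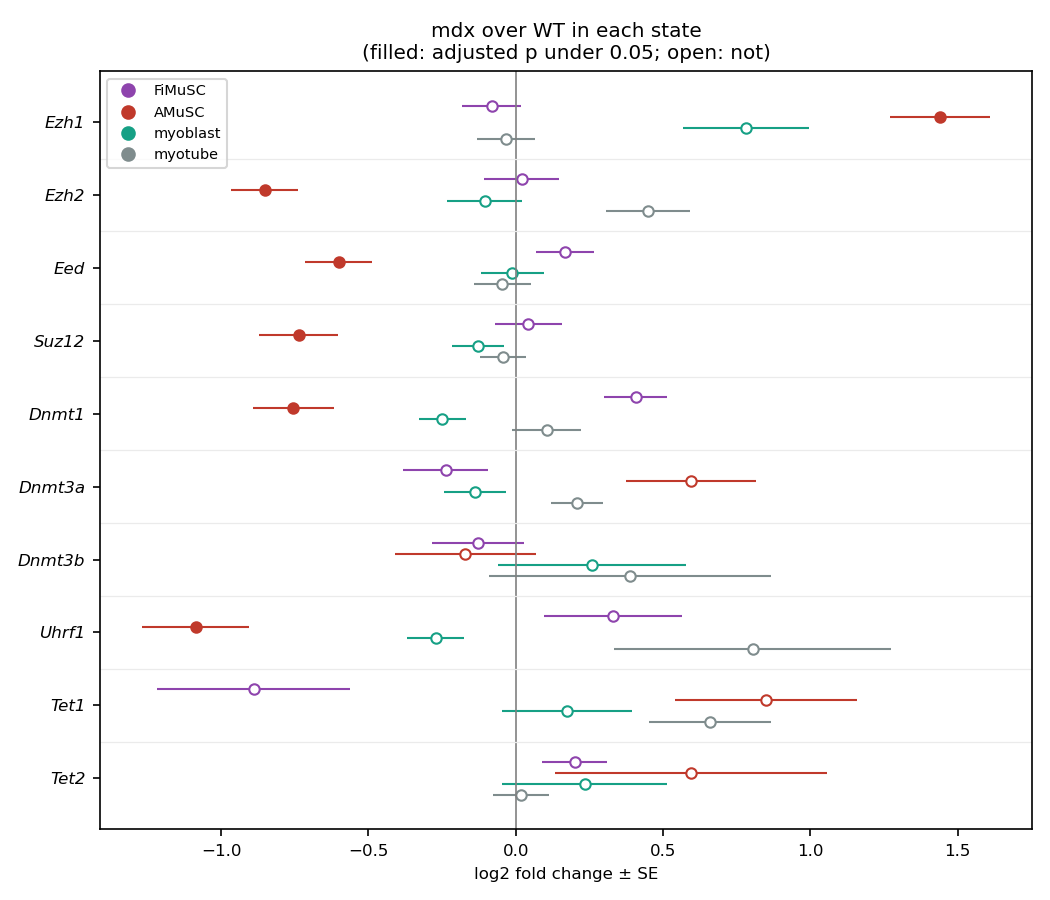
Log2 fold change ± SE of *mdx* over WT in FiMuSCs, AMuSCs, myoblasts and myotubes for each gene. The 6 filled points, with an edgeR adjusted p under 0.05, are all AMuSC points, *Ezh1* at 1.44 and 5 genes between -1.09 and -0.60.

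In uninjured muscle no member was called between *mdx* and WT FiMuSCs, against 5.82% of 19406 genes higher and 3.85% lower in *mdx*. At an unadjusted p under 0.05 there were 2 members, *Dnmt1* and *Tet1*, and DESeq2 called these 2, against 25.6% of all genes at that p and 3098 genes called by DESeq2. *Dnmt1* had 64.8, 72.6 and 70.9 CPM in *mdx* FiMuSCs, against 60.2, 48.0 and 49.5 CPM in WT FiMuSCs (log2 0.41 ± 0.11, adjusted p = 0.0606 with edgeR and 0.0339 with DESeq2). Its groups did not overlap, but the share of all genes without overlap was not computed. *Tet1* had 20.5, 11.9 and 9.39 CPM in *mdx* FiMuSCs, against 28.9, 19.0 and 30.1 CPM in WT FiMuSCs (log2 -0.89 ± 0.33, adjusted p = 0.15 with edgeR and 0.039 with DESeq2). The other 8 log2 fold changes were no larger than 0.33 in size. WT FiMuSC replicate 1 decided 3 values, since without it *Dnmt1* (0.51, adjusted p = 0.025), *Uhrf1* (0.65, adjusted p = 0.0326) and *Dnmt3a* (-0.39, adjusted p = 0.0497) were called, and without *mdx* FiMuSC replicate 1 *Tet1* was called (-1.29, adjusted p = 0.0247). Over all genes 511 to 2503 were called without single libraries, against 1876 with all of them.

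In culture the PRC2 core and the maintenance methylation genes went down with differentiation. In WT cells *Uhrf1*, *Ezh2*, *Dnmt1*, *Dnmt3b*, *Suz12* and *Eed* fell in myotubes relative to myoblasts, and *Ezh1*, *Tet2* and *Dnmt3a* rose, 3 higher and 6 lower, against 34.9% of 16907 genes higher and 34.5% lower. The members' median log2 fold change was -0.70, and that of all genes was -0.02. In *mdx* cells 3 were higher and 6 lower as well, against 25.8% of 17206 genes higher and 26.5% lower, with *Tet1* in place of *Tet2* among the higher genes.

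*Uhrf1* had 3.99, 4.74 and 12.1 CPM in *mdx* myotubes, against 147, 114 and 124 CPM in *mdx* myoblasts, and was 18.1-fold lower (log2 -4.18 ± 0.46, edgeR adjusted p = 0.000606). Without single libraries this log2 fold change ranged from -4.84 to -3.89. In WT it had 3.39, 5.58 and 2.88 CPM in myotubes, against 159, 153 and 157 CPM in myoblasts, 39.5-fold lower (log2 -5.30 ± 0.23, adjusted p = 3.02e-06). *mdx* myotube replicate 3 was the highest myotube library for *Uhrf1* and also for the mitosis marker *Mki67*, at 25.8 CPM, against 2.79 to 7.77 CPM in the other 5 myotube libraries, and the part of dividing cells in its level was not tested. *Ezh2* had 22.6, 17.4 and 24.3 CPM in *mdx* myotubes, against 176, 138 and 135 CPM in *mdx* myoblasts, 6.85-fold lower (adjusted p = 8.96e-05). In WT it had 15.3, 16.2 and 15.3 CPM in myotubes, against 174, 143 and 169 CPM in myoblasts, 10.3-fold lower (adjusted p = 1.33e-07). *Dnmt1*, at 39.8 to 53.3 CPM in the myotubes of both genotypes and 189 to 250.1 CPM in the myoblasts, was 4.52-fold lower in *mdx* and 5.90-fold lower in WT (adjusted p = 9.47e-05 and 8.33e-08). No myotube library reached a myoblast library for these 3 genes.

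The other PRC2 subunits changed less. *Suz12* was 1.74-fold lower in *mdx* and 1.88-fold lower in WT myotubes (adjusted p = 0.00116 and 5.29e-06), and *Eed* was 1.40-fold lower in both (adjusted p = 0.0194 and 0.000535). *Ezh1* had 36.0, 38.2 and 32.0 CPM in *mdx* myotubes, against 17.2, 28.2 and 17.9 CPM in *mdx* myoblasts, 1.71-fold higher (adjusted p = 0.0199). In WT it had 34.9, 36.1 and 37.2 CPM in myotubes, against 11.2, 12.4 and 13.6 CPM in myoblasts, 2.93-fold higher (adjusted p = 3.18e-06). The *Ezh1* groups did not overlap in either genotype, and *mdx* myoblast replicate 2 stood above the other myoblast libraries.

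*Dnmt3a*, of the de novo pair, had 52.5, 49.3 and 55.5 CPM in *mdx* myotubes, against 23.2, 27.8 and 23.2 CPM in *mdx* myoblasts, 2.16-fold higher (adjusted p = 0.00034), and in WT it was 1.66-fold higher (adjusted p = 5.39e-05). *Dnmt3b* went down at very low levels, to 0.521 to 1.38 CPM in *mdx* myotubes, against 1.82 to 2.9 CPM in *mdx* myoblasts (2.60-fold lower, adjusted p = 0.0499), and to 0.507 to 0.845 CPM in WT myotubes, against 1.55 to 2.38 CPM in WT myoblasts (2.91-fold lower, adjusted p = 0.00401). The sign thus differed between the 2 de novo enzymes in both genotypes. *Tet1* was 1.95-fold higher in *mdx* myotubes (adjusted p = 0.0157) and its log2 fold change in WT was 0.45 (adjusted p = 0.0574). *Tet2* had a log2 fold change of 0.63 in *mdx* (adjusted p = 0.0837) and was 1.75-fold higher in WT myotubes (adjusted p = 0.000756). In *mdx* single libraries decided 4 calls. That of *Dnmt3b* was lost without any of the 3 myoblast libraries or without myotube replicate 2 or 3 (adjusted p from 0.0704 to 0.139), that of *Ezh1* without myoblast replicate 1 or 3 or myotube replicate 1 or 2 (0.0559 to 0.0727), that of *Eed* without myotube replicate 1 or 2 (0.0608 and 0.0583), and that of *Tet1* without myoblast or myotube replicate 3 (0.0504 and 0.0569). Conversely, *Tet2* was called without *mdx* myoblast replicate 2 (log2 0.93, adjusted p = 0.0124). With an offset for transcript length 5 members were called in *mdx*, as *Ezh1* (0.55), *Dnmt3a* (0.61), *Dnmt3b* (-0.98) and *Tet1* (0.03) had adjusted p from 0.148 to 0.945. Over all genes 7732 were called with the offset, against 8982 without it.

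For no member did the difference of differentiation responses between genotypes pass the test of the interaction term, against 0.0269% of 18585 genes with a positive and 0.0323% with a negative difference. At an unadjusted p under 0.05 there were 4 members, against 12.3% of all genes, and DESeq2 called 0. These were *Ezh1* (-0.76, adjusted p = 0.277), *Ezh2* (0.61, adjusted p = 0.277), *Dnmt3a* (0.40, adjusted p = 0.278) and *Dnmt1* (0.41, adjusted p = 0.316).

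Between genotypes in culture no member was called either. In myoblasts, against 0.244% of 17226 genes higher and 0.116% lower in *mdx*, the unadjusted p was under 0.05 for 3 members and for 14.4% of all genes, and *Ezh1* was the 1 member among the 877 genes called by DESeq2. *Ezh1* had 17.2, 28.2 and 17.9 CPM in *mdx* myoblasts, against 11.2, 12.4 and 13.6 CPM in WT myoblasts (log2 0.78 ± 0.21, adjusted p = 0.208 with edgeR and 0.0189 with DESeq2). The highest of these libraries, *mdx* myoblast replicate 2, also had the most leukocyte marker RNA, 164 CPM against 3.04 and 5.23 CPM in the other *mdx* myoblasts, and the highest sums of MuSC (1256 CPM) and fibro-adipogenic (955 CPM) markers among the 6 myoblast libraries. Without it the log2 fold change of *Ezh1* was 0.51 (adjusted p = 0.283), and the part of other cells in it was not tested. *Dnmt1* (log2 -0.25, adjusted p = 0.259) and *Uhrf1* (log2 -0.27, adjusted p = 0.295) did not pass the test either. The groups of these genes and of *Ezh1* did not overlap, but the share of all genes so separated was not computed. In myotubes, against 0.373% of 16084 genes higher and 0.218% lower in *mdx*, the unadjusted p was under 0.05 for 2 members and for 13.6% of all genes, and DESeq2 called 0 members among its 658 genes. These were *Ezh2* (log2 0.45 ± 0.14, adjusted p = 0.266) and *Tet1*, at 15.3, 11.3 and 16.3 CPM in *mdx* myotubes against 7.13, 10.4 and 9.55 CPM in WT myotubes (log2 0.66 ± 0.21, adjusted p = 0.265). Their groups did not overlap, again without a share over all genes to compare.

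The RNA balance of the 2 catalytic subunits was followed as the log2 ratio of *Ezh1* to *Ezh2* within each library. On summed gene TPM it averaged -1.68 ± 0.42 in *mdx* AMuSCs and -3.88 ± 0.21 in WT AMuSCs (SD, n = 3 each), and the ranges of -2.14 to -1.31 and -4.09 to -3.67 did not overlap. In FiMuSCs it was 0.64 ± 0.16 in *mdx* and 0.90 ± 0.07 in WT, so *Ezh1* had the higher RNA level of the pair in uninjured cells of both genotypes. In myoblasts it was -4.31 ± 0.59 in *mdx* and -5.40 ± 0.26 in WT. In myotubes the sign depended on the unit, with -0.93 ± 0.35 in *mdx* and -0.51 ± 0.05 in WT on summed TPM, but 0.18 ± 0.41 in *mdx* and 0.78 ± 0.08 in WT on coding transcripts of at least 1000 bases. On CPM, which is not corrected for length, the ratio was -0.34 ± 0.37 in *mdx* AMuSCs (0.05 in replicate 1) and -2.62 ± 0.08 in WT AMuSCs, 2.26 ± 0.18 in *mdx* FiMuSCs and 2.36 ± 0.14 in WT FiMuSCs, and -2.85 ± 0.54 in *mdx* myoblasts and -3.71 ± 0.22 in WT myoblasts. A retained-intron fragment of 500 bases, Ezh2-213, held 35.5% to 45.1% of summed *Ezh2* TPM on average in the 8 groups, and per-length values weight such short fragments heavily.

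**Figure D4:**
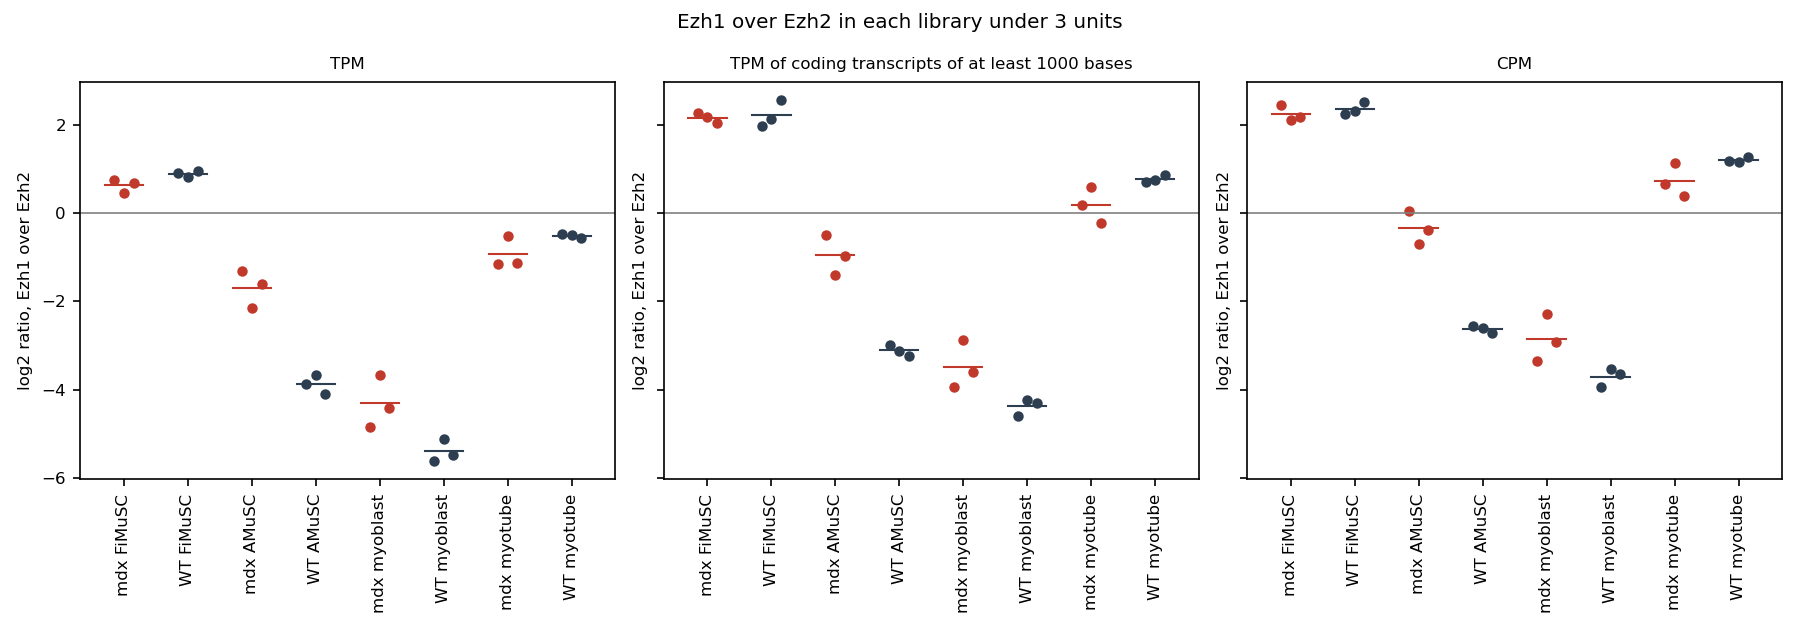
Log2 ratio of *Ezh1* over *Ezh2* in every library (points) with group means (lines), on gene TPM, on TPM of coding transcripts of at least 1000 bases and on CPM, *mdx* left of WT. FiMuSCs lie above 0 and myoblasts below 0 in all 3 panels, *mdx* AMuSCs lie above WT AMuSCs in all 3, and myotubes change sign between panels.

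Markers of DNA replication moved with the same members. The summed level of 18 S phase genes, such as *Mcm2* and *Pcna*, was 1389 to 2073 CPM in *mdx* AMuSCs, against 3038 to 3427 CPM in WT AMuSCs, and all 18 were called lower in *mdx* (median log2 fold change -0.91), with 13 of 16 mitosis genes called lower (median -0.60). All 18 S phase genes rose after injury in both genotypes, with a median of 1.83 in *mdx* and 3.09 in WT, and 17 of 18 had a negative difference that passed the interaction test (median -1.32), while 1 of 16 mitosis genes did (median -0.87). None of the members is in this sum. As a ratio to it within each library, *Ezh2* CPM stood at 4.82% ± 0.574 of the sum in *mdx* AMuSCs and 4.58% ± 0.263 in WT AMuSCs (SD, n = 3 each), and *Dnmt1* at 11.8% ± 1.41 in *mdx* and 10.5% ± 0.338 in WT. *Uhrf1* stood at 7.52% ± 0.410 in *mdx* AMuSCs and 8.57% ± 0.235 in WT AMuSCs, so its *mdx* libraries stayed below its WT libraries on this scale too. *Eed* stood at 2.74% ± 0.323 in *mdx* and 2.19% ± 0.181 in WT AMuSCs, so its *mdx* libraries lay above its WT libraries here, opposite to its CPM. *Suz12* stood at 5.97% ± 1.00 in *mdx* and 5.25% ± 0.495 in WT AMuSCs. *Ezh1* stood at 3.97% ± 1.5 in *mdx* AMuSCs and 0.749% ± 0.0833 in WT AMuSCs. These ratios are a description, and the part of cell division in the genotype difference was not tested.

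**Figure D5:**
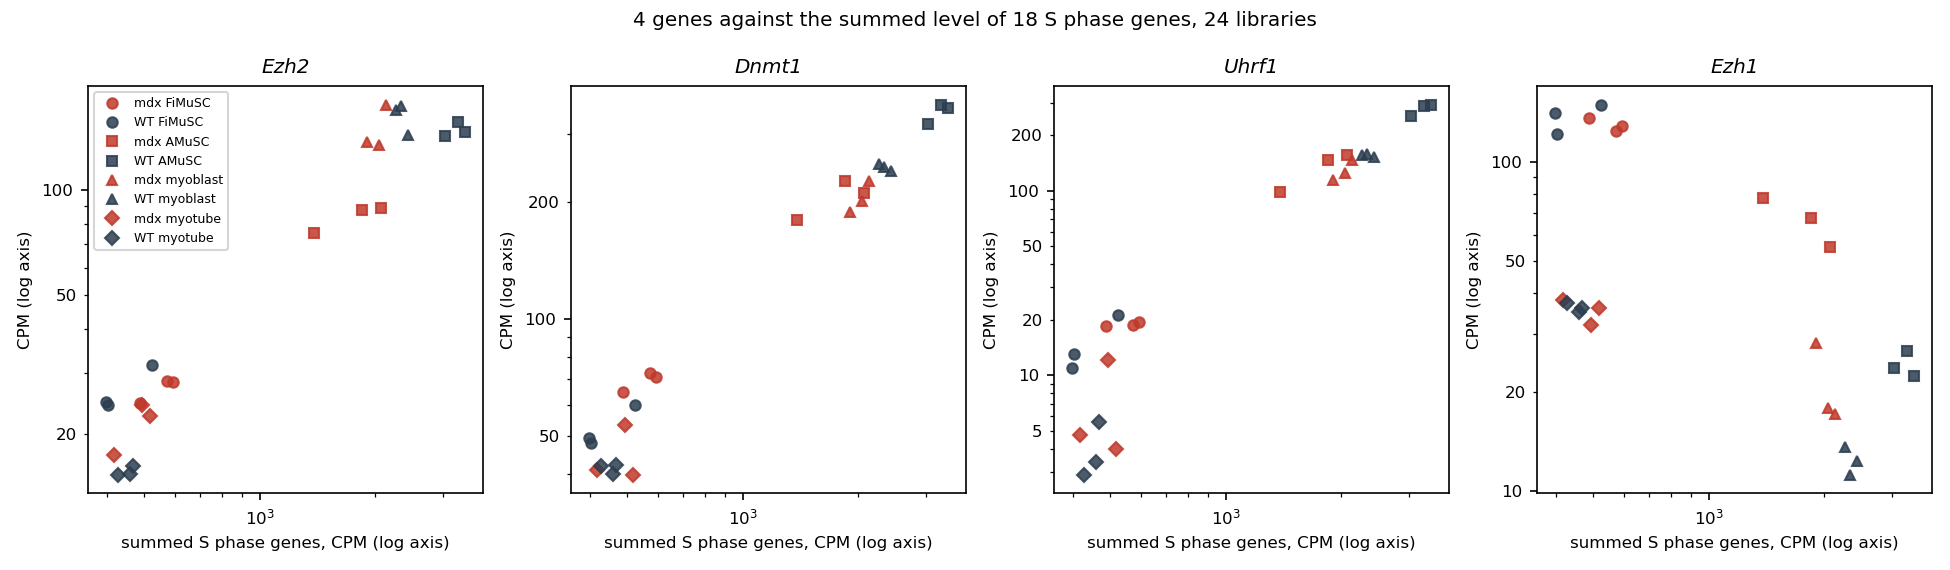
CPM of *Ezh2*, *Dnmt1*, *Uhrf1* and *Ezh1* (vertical) against the summed CPM of 18 S phase genes (horizontal), both on log axes, in the 24 libraries, coloured by genotype and shaped by state. *Ezh2*, *Dnmt1* and *Uhrf1* climb with the sum, and *mdx* AMuSCs (1389 to 2073 CPM) lie between the uninjured cells and WT AMuSCs, while *Ezh1* has no single course with it, at 55.0 to 77.9 CPM in *mdx* AMuSCs and 32.0 to 38.2 CPM in the myotubes, whose sums were 416 to 519 CPM.

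Across the 24 libraries, which share state as their main difference, the log2 levels of *Dnmt1* and *Uhrf1* had a Pearson r of 0.984, those of *Ezh2* and *Dnmt1* 0.973, and those of *Eed* and *Suz12* 0.947. *Ezh1* had an r of 0.905 with *Tet2* and of -0.889 with *Eed*. Of 10358 expressed genes the closest to *Uhrf1* was *Trip13* (r = 0.997), to *Dnmt1* *Cip2a* (0.993) and to *Ezh2* *Spdl1* (0.993) followed by *Rfwd3* and *Brca1*. *Suz12* was closest to *Tfdp1* (0.982), *Eed* to *Orc2* (0.969), *Ezh1* to *Txndc16* (0.981) and *Tet2* to *Kmt2c* (0.948). *Dnmt3b* was closest to *Gabpb2* (0.972), whereas *Dnmt3a* (*Dag1*, 0.914) and *Tet1* (*Stx16*, 0.891) had no partner as close.

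Other Polycomb genes were read in the same way. Of 8 PRC2 partners 1 was higher and 3 were lower in *mdx* than in WT AMuSCs, against 14.8% of all genes higher and 8.95% lower. *Epop* (log2 -1.59, adjusted p = 0.0113), *Phf19* (-0.95, adjusted p = 0.0163) and *Mtf2* (-0.70, adjusted p = 0.0214) were the lower ones, and *Phf1* (0.93, adjusted p = 0.0124) was the higher one. *Phf19*, *Mtf2* and *Phf1* are Polycomb-like proteins that bring PRC2 to CpG islands. In the difference of injury responses 1 of the 8 partners passed the test, with a negative value, against 6.98% of all genes. Of 21 subunits of PRC1, which ubiquitinates histone H2A, 2 were higher and 3 lower, near the shares over all genes, among them the CBX readers *Cbx6* (0.64, adjusted p = 0.00993) and *Cbx2* (-0.62, adjusted p = 0.018). The median log2 fold change was -0.39 for the PRC2 partners and -0.03 for PRC1, and the H3K27 demethylases *Kdm6a* and *Kdm6b* did not pass the test. In FiMuSCs none of the 8 PRC2 partners or 21 PRC1 subunits was called between genotypes.

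Among 13 tested partners and readers of DNA methylation, 3 were higher and 4 lower in *mdx* AMuSCs, against 14.8% of all genes higher and 8.95% lower. *Hells* (log2 -1.54, adjusted p = 0.00285) and *Cdca7* (-1.25, adjusted p = 0.00489), which form a nucleosome remodeller needed for DNA methylation, were lower, like *Dnmt1* and *Uhrf1*. So was *Cdca7l* (-0.77, adjusted p = 0.00552). *Zbtb4*, a reader of methylated CpG, was higher (1.69, adjusted p = 0.000894). After injury *Hells* rose by 2.23 in *mdx* and by 4.19 in WT on the log2 scale, and its response differed between genotypes by -1.99 (adjusted p = 0.00538). Of 8 tested demethylation genes *Gadd45a* and *Idh1* were higher and *Tdg*, the glycosylase that excises oxidised methylcytosine, was lower (-0.55, adjusted p = 0.0401). These counts stand against the same shares over all genes.

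Genes that these systems are known to silence were also read. All 4 Polycomb-target cell cycle inhibitors were higher in *mdx* than in WT FiMuSCs, *Cdkn2a* by 3.04, *Cdkn2b* by 1.90, *Cdkn1a* by 1.70 and *Cdkn1c* by 1.16 on the log2 scale (adjusted p from 0.0128 to 0.0214), against 5.82% of all genes higher. In the same comparison 5 of 8 leukocyte and macrophage markers were called higher (median log2 fold change 2.73), with sums of 479 to 1430.0 CPM in *mdx* FiMuSCs, against 70.5 to 342 CPM in WT FiMuSCs, as were 2 of 6 differentiation markers, and their part in the inhibitor levels was not tested. *Cdkn2a*, which encodes p16 and ARF, had 20.7 to 23.6 CPM in *mdx* FiMuSCs, against 1.22 to 5.01 CPM in WT FiMuSCs, in a state where no member was called. In AMuSCs *Cdkn1c* (0.98, adjusted p = 0.00766) and *Cdkn2a* (1.46, adjusted p = 0.0208) were higher in *mdx*, against 14.8% of all genes. After injury all 4 inhibitors were called higher in WT (median log2 fold change 2.61), against 31.6% of all genes, while *Ezh2*, *Eed* and *Suz12* rose too. In *mdx* 1 of the 4 was called higher (median 0.94), against 15.5% of all genes. The *mdx* minus WT difference was negative for all 4 (median -1.49), and 1 passed the test, against 6.98% of all genes. Of 12 germline genes kept silent by promoter methylation, 1 was tested in FiMuSCs, *Brdt*, and was lower in *mdx* (-0.71, adjusted p = 0.0429), while 10 were too low to be tested in AMuSCs and the other 2 were not called.

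Near copies of members reached at most 1.08 CPM in any library. That was *E230029C05Rik*, an antisense gene that shares 100% identity over 261 bases with *Eed*. *Uhrf1* shares 98.3% identity over 1590 bases with the pseudogene *Gm5648*, which reached at most 0.335 CPM, and *Dnmt3b* shares 93.3% over 1655 bases with *Dnmt3c*, at most 0.104 CPM. *Dnmt3b* itself lay between 0.507 and 0.845 CPM in WT myotubes, nearer to its copy than in any other group.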

How the data were processed

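Sorted cells were extracted with an Arcturus PicoPure kit and cultured cells with a Nucleospin RNA II kit, and polyA libraries were made with a directional kit. The authors quantified transcripts with Salmon 0.13.1 against GRCm38, per the submitters' processing notes, which also name DESeq2. The deposited files hold estimated counts (expected counts, which need not be whole) and TPM for each of 136202 transcripts in each of the 24 libraries. Transcripts were summed to 53392 genes, of which 53355 matched GENCODE M21, and the estimated counts were rounded. Each comparison was fitted on its own libraries with the edgeR 4.0.16 quasi-likelihood test (robust, TMM scaling, filterByExpr) in R 4.3.3, with Benjamini-Hochberg adjustment over all genes tested, calls at an adjusted p under 0.05, and a genotype by state term for differences of responses. DESeq2 1.42.0 gave the alternative calls. Levels are TMM-scaled CPM over all 24 libraries, and errors are SD over 3 libraries unless named SE. Near copies were found with blastn 2.17.0, and other scripts ran in Python 3.11.15. The scripts were tested on simulated data.

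The members and gene lists were chosen with earlier results of these data known. The members were named in every comparison, list genes up to 4 per comparison by the smallest p among those called, and the genes most like each member up to 3 by Pearson r among protein-coding genes with a mean log2 CPM of at least 2. The libraries of a group were stated to be biological replicates. Alternatives were DESeq2, no filter on low counts, an offset for transcript length, all 24 libraries in 1 fit, a replicate block and leaving out each library. The use of coding transcripts of at least 1000 bases, for levels between genes and for the ratio, was chosen after seeing the data. No batch was named in the labels. Promoter sequences came from RefSeq on GRCm38.p6, and all 10 members matched.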

Additional observations from a re-analysis of the deposited data

Results flagged for a closer look

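For 7 of the 10 genes the response to injury differed between genotypes by the test of the difference itself, an interaction term in edgeR over the 12 sorted libraries, against 8.14% of all genes with a positive and 6.98% with a negative difference. On the log2 scale, as the *mdx* response minus the WT response, the differences were 1.428 for *Ezh1*, -0.959 for *Ezh2*, -0.855 for *Eed*, -0.87 for *Suz12*, -1.252 for *Dnmt1*, -1.503 for *Uhrf1* and 1.641 for *Tet1*. Adjusted p ranged from 0.000998 (*Ezh1*) to 0.0336 (*Tet1*). The *Tet1* call was lost in 9 of the 12 fits without 1 library and with the length offset (adjusted p = 0.16). The summed level of 18 S phase genes moved with these values, at 1389 to 2073 CPM in *mdx* AMuSCs and 3038 to 3427 CPM in WT AMuSCs. Leukocyte markers summed to 141 to 4032 CPM in *mdx* AMuSCs, most in replicate 1, and to 8.34 to 25.5 CPM in WT AMuSCs. The part of S phase genes and leukocyte RNA in the differences was not tested.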

How the results depend on the processing

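With 3 libraries a group, calls near the threshold depended on single libraries. Over the 10 genes and 10 comparisons, 94 of 100 values kept direction and side of the threshold with DESeq2, 91 with all 24 libraries in 1 fit, 98 with no filter and 83 with an offset for transcript length. Between *mdx* and WT FiMuSCs 0 members were called by edgeR, 2 by DESeq2, 1 with all 24 libraries and 0 to 3 without single libraries. Over all genes these settings called, in the same order, 1876, 3098, 1550 and 511 to 2503. Between *mdx* and WT AMuSCs 6 members were called, 7 by DESeq2, 8 with all 24 libraries and 3 to 8 without single libraries. The matching counts over all genes were 4582, 5812, 6380 and 1416 to 6305. Between *mdx* and WT myoblasts 0 members were called, and 1 by DESeq2 and with all 24 libraries, against 62, 877 and 432 of all genes. For *mdx* myotubes against myoblasts 9 members were called, and 5 with the length offset, against 8982 and 7732 of all genes. The cause of these changes was not tested.

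The sign turned for values that had not passed the test. With the length offset *Dnmt3a* was 0.057 and *Dnmt3b* 0.063 (*mdx* against WT FiMuSCs), *Eed* 0.066 and *Dnmt3a* 0.677 (*mdx* against WT myoblasts), *Eed* 0.069 and *Tet2* -0.294 (*mdx* against WT myotubes), *Dnmt3a* 0.535 and *Dnmt3b* 0.091 (WT injury), *Tet2* -0.206 (*mdx* differentiation), and *Suz12* -0.029, *Dnmt3a* -0.291 and *Tet1* -0.172 (difference of differentiation responses). In that difference *Eed* was -0.004 with no filter and -0.017 with all 24 libraries. The log2 ratio of *Ezh1* to *Ezh2* was 0.181 (long coding TPM) and 0.734 (CPM) in *mdx* myotubes, and 0.78 and 1.206 in WT myotubes, in place of negative values.

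Leaving out 1 library gave ranges that crossed 0 for *Ezh2* (-0.052 to 0.147) and *Suz12* (-0.041 to 0.124) in FiMuSCs, *Eed* (-0.145 to 0.043), *Tet1* (-0.044 to 0.317) and *Tet2* (-0.09 to 0.449) in myoblasts, and *Ezh1* (-0.085 to 0.045), *Eed* (-0.112 to 0.017), *Suz12* (-0.084 to 0.003), *Dnmt1* (-0.028 to 0.168), *Dnmt3b* (-0.083 to 0.679) and *Tet2* (-0.058 to 0.073) in myotubes. The same held for *Dnmt3b* in the difference of injury responses (-0.239 to 0.003), and for *Eed* (-0.047 to 0.149), *Dnmt3b* (-0.313 to 0.478) and *Tet2* (-0.374 to 0.149) in that of differentiation responses.

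Counts over all genes moved by over 1.5 times in these cases. FiMuSCs had 1876 genes called between genotypes, 3098 by DESeq2, 1220 with the length offset and 511 to 2503 without single libraries. AMuSCs had 4582, 2886 with the length offset and 1416 to 6305. Myoblasts had 62, 877 by DESeq2, 432 with all 24 libraries, 124 with no filter, 27 with the length offset and 9 to 125. Myotubes had 95, 658 by DESeq2, 250 with all 24 libraries, 196 with no filter, 54 with the length offset and 14 to 235. The *mdx* injury response had 5357 and 2663 to 5919, the difference of injury responses 3189, 1787 with the length offset and 1793 to 4878, and the difference of differentiation responses 11, 288 by DESeq2, 7 with all 24 libraries, 1 with the length offset and 0 to 15.

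With the replicate block all 100 member values kept direction and side of the threshold, 6 members in AMuSCs and 7 in the difference of injury responses among them. Over all genes the block gave 3252 calls in AMuSCs and 2314 in the difference of injury responses, against 4582 and 3189 without it. It gave 1148 in FiMuSCs, 7 in myoblasts, 15 in myotubes and 0 in the difference of differentiation responses. Same-numbered libraries deviated together with correlations from -0.119 (*mdx* against WT AMuSCs, replicate 3) to 0.285 (*mdx* myotubes against myoblasts, replicate 1). With deviations taken from means of 3 libraries, these values cannot decide whether the numbers pair the samples. The main tests treated the libraries as unpaired.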
